A study of Mus musculus with 17 samples.

Results

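A set of WT1 binding regions was present in vehicle-treated mice in both models of the study and had no peak in any list made after injury. These vehicle-only regions were picked by peak presence alone. The peaks of all 5 deposited lists were merged into regions wherever they overlapped or touched, which gave 41766 regions. Every vehicle-only region had a peak in glomeruli and in podocytes of mice given phosphate-buffered saline (PBS), and none in ADR glomeruli, day 9 podocytes or day 14 podocytes, where ADR is adriamycin. There were 804 of them, 1.93% of all regions (95% Wilson interval 1.80 to 2.06). Of the 18613 regions with a peak in both PBS lists they made up 4.32%, a share that the rule itself fixes.

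Binding was read by ChIP-seq: DNA bound by WT1 is pulled down with an antibody and sequenced. A stretch of genome where precipitated fragments pile up above background is called as a peak. ADR glomeruli (4 libraries) and PBS glomeruli (4 libraries) were isolated from BALB/cJ mice. Purified podocytes of mTmG reporter mice gave 3 libraries after PBS, 2 at day 9 after ADR and 2 at day 14. All mice were labelled wildtype in genotype and were 7 to 8 weeks old, and the podocyte mice also carried a Cre recombinase. The other 2 samples were glomerular inputs, 1 for ADR and 1 for PBS. The labels give no day for the ADR glomeruli or for the PBS samples.

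WT1 is a zinc-finger transcription factor that binds GC-rich DNA and is kept on in the adult podocyte, the epithelial cell that wraps the capillaries of the glomerulus. There it is needed for the genes of the slit diaphragm, the cell junction through which blood is filtered, and of the actin skeleton behind it. Adriamycin (doxorubicin) is a DNA-damaging drug that injures podocytes and is widely used in mice to bring on protein loss into the urine. In whole glomeruli, podocytes are mixed with endothelial, mesangial and parietal cells, so fewer podocytes in a preparation and less WT1 binding per podocyte cannot be told apart.

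Each group was represented by 1 peak list, so no value below has a replicate error and no test between groups was run. Intervals are 95% Wilson intervals that cover the counting error of regions, not the variation between mice. The lists held 16634 peaks for ADR glomeruli and 29082 for PBS glomeruli, and along the podocyte series 23402 for PBS, 31949 for day 9 and 6694 for day 14. Read totals were not used here. Strain, tissue preparation and model differ together between the glomerular and the podocyte lists. The rule used the presence of peaks in these same lists, so the comparisons of signal, width and position that follow are descriptions.

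The day 9 podocyte list did most to set the size of the group. Among the 18613 regions of both PBS lists, 7787 (41.8%) had no ADR glomerular peak, 1228 (6.6%) had no day 9 peak and 12509 (67.2%) had no day 14 peak. Counted over each PBS list on its own, 53.2% of PBS glomerular regions had no ADR glomerular peak, and of PBS podocyte regions 13% had no day 9 peak and 72.6% no day 14 peak. All but 2 of the 1228 regions without a day 9 peak also lacked a day 14 peak (1226, 99.8%, 99.4 to 100). The day 14 list therefore removed no region from the vehicle-only group, which also numbered 804 when day 14 was left out of the rule. By contrast, 6983 of the 7787 regions without an ADR glomerular peak had a day 9 peak (89.7%, 89.0 to 90.3).

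The other regions of both PBS lists showed how rare complete absence was. Regions present in ADR glomeruli and at day 9, but not at day 14, were the most common class with 5736. Next came 5547 with day 9 as their only ADR list, 4666 with a peak in all 5 lists and 1436 with day 9 and day 14 but not ADR glomeruli. The 804 vehicle-only regions followed, ahead of 422 regions whose only ADR list was that of glomeruli. In 2 regions ADR glomeruli and day 14 held a peak without day 9.

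Regions without a day 9 peak more often lacked an ADR glomerular peak too, to an extent that depended on how signal was taken into account. Of the 1228 regions without a day 9 peak, 804 (65.5%, 62.8 to 68.1) had no ADR glomerular peak. Of the 17385 regions with a day 9 peak, 6983 (40.2%, 39.4 to 40.9) had none. The difference was 25.3 percentage points (Newcombe interval 22.5 to 28.0). The 804 are the vehicle-only regions themselves, and the contrast uses the same peak presence as the rule. It and its splits by signal are therefore descriptions, not tests of a joint loss. The glomerular and the podocyte lists come from separate immunoprecipitations. Whether a background control was shared between them is not given in the labels.

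The same regions were then split into 4 equal bins by their fold enrichment in PBS podocytes, the ratio of fragments at the summit to the background as given by the authors' peak caller. In the weakest bin 56.9% of regions without a day 9 peak (53.5 to 60.3) and 36.4% of regions with one (34.9 to 38.0) had no ADR glomerular peak. The second bin gave 81.5% without and 50.3% with a day 9 peak, and the third 81.7% and 45.2%. The strongest bin held 5 regions without a day 9 peak, of which 4 were vehicle-only. Split by enrichment in both PBS lists at once, the share was higher without a day 9 peak in all 8 cells that held at least 20 such regions, with intervals apart in 7 of them.

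A split by the caller's −log10 q, the strength of evidence for a peak after correction for multiple tests, gave a smaller contrast where most of the group lay. The weakest of 4 bins by −log10 q in PBS podocytes held 606 of the 804 regions. There 66.0% of regions without a day 9 peak (62.9 to 69.0) and 61.6% of regions with one (60.0 to 63.1) had no ADR glomerular peak, a difference of 4.43 points with overlapping intervals. In the second bin, which held 179 of the 804, the shares were 63.0% (57.3 to 68.4) and 49.5% (48.0 to 51.0). In the third, with 19 of the 804, they were 73.1% (53.9 to 86.3) and 36.6% (35.2 to 38.0). In 10 finer bins by −log10 q, the weakest 5 gave 65.6%, 67.5%, 61.6%, 70.4% and 54.0% without a day 9 peak, against 63.3%, 60.5%, 56.2%, 50.8% and 47.1% with one. The share without a day 9 peak was the higher in each of these 5, and the intervals were apart only in the fourth. The strongest of the 4 bins had no region without a day 9 peak.

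**Figure D1:**
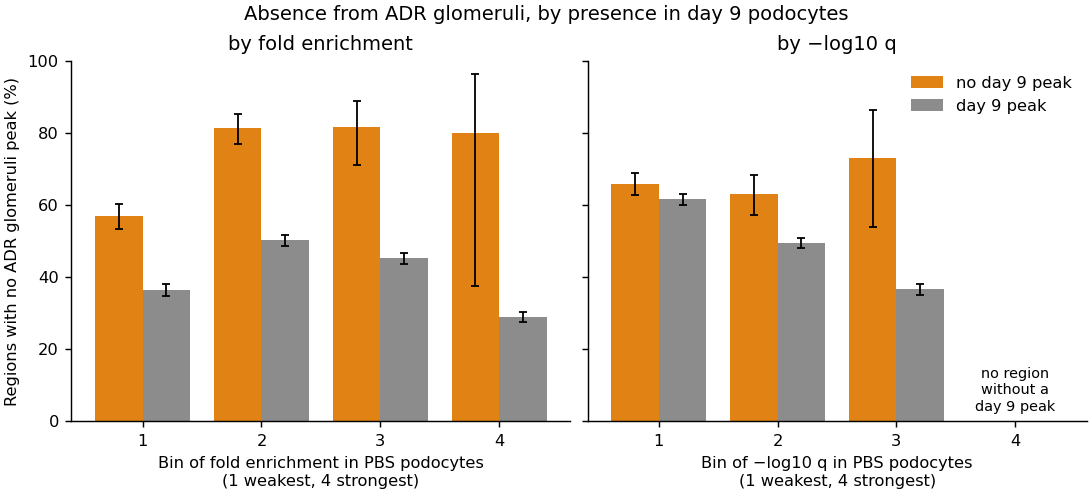
Share of regions of both PBS lists that had no ADR glomerular peak (percent, bars with 95% Wilson intervals), for regions without a day 9 podocyte peak (orange) and with one (grey), by bin of fold enrichment (left) or of −log10 q (right) in PBS podocytes. By fold enrichment the weakest bin gives 56.9% and 36.4%, while by −log10 q it gives 66.0% and 61.6%.

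The vehicle-only regions were weak WT1 sites in both kinds of vehicle sample. Their median enrichment was 6.04-fold in PBS glomeruli (quartiles 4.88 and 7.75), against 9.72-fold (6.72 and 14.4) in the other 17809 regions of both PBS lists. In PBS podocytes it was 4.61-fold (3.59 and 5.74), against 7.29-fold (5.02 and 11.8). The median −log10 q was 7.40 in PBS glomeruli and 8.10 in PBS podocytes, against 19.1 and 22.7 in the other regions. As a percentile of each list, where 100 marks its strongest peak, the median was 33.6 in PBS glomeruli and 25.0 in PBS podocytes. The 4666 regions of all 5 lists stood at 87.1 and 85.6.

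Regions with a single ADR list differed by which list it was. Those whose only ADR list was glomerular had medians at percentile 33.8 in PBS glomeruli and 9.88 in PBS podocytes. Those whose only ADR list was day 9 stood at 52.6 and 48.9. Vehicle-only regions thus had about the same glomerular percentile of fold enrichment as the first class and a higher podocyte percentile. By −log10 q the podocyte difference was absent, with a median of 8.10 in PBS podocytes for both classes. In PBS glomeruli the median −log10 q was 7.40 for vehicle-only regions and 8.33 for the first class.

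**Figure D2:**
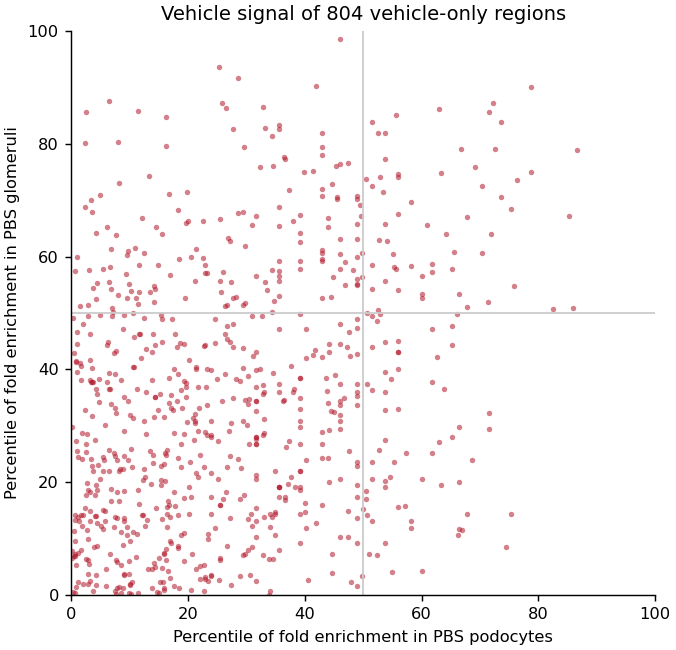
Percentile of fold enrichment in PBS podocytes (horizontal) and in PBS glomeruli (vertical) for each vehicle-only region, 1 point per region, with grey lines at the median of each list. Of the 804 points, 518 lie below both medians and 59 above both.

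Few vehicle-only regions were strong in both lists. Of the 804, 518 (64.4%, 61.1 to 67.7) lay below the median of both PBS lists and 59 (7.34%, 5.73 to 9.35) above both. In the regions of all 5 lists, the class with the strongest PBS signal, 4099 of 4666 (87.8%) lay above both. The shares below both and above both were not counted for the 17809 regions of both PBS lists outside the group, so these counts cannot be set against them. Those regions had median percentiles of 66.3 in PBS glomeruli and 59.2 in PBS podocytes. The 5969 of them with a peak in 1 ADR list stood at 51.6 and 46.7. The top 10% of the PBS glomerular list held 5 vehicle-only regions and the top 10% of the PBS podocyte list held 0, which allows a share of up to 0.476% of the group by the upper Wilson bound. In 120 regions both PBS peaks had −log10 q of 10 or more (14.9%, 12.6 to 17.6), and these were 1.01% of the 11837 regions of both lists with such peaks.

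The share of regions that were vehicle-only dropped steadily with signal. With the 18613 regions in 10 equal bins by PBS glomerular enrichment, it was 12.1% (10.7 to 13.7) in the weakest bin, up to 5.02-fold, 3.60% (2.84 to 4.55) in the fifth and 0.107% (0.0295 to 0.391) in the strongest. By PBS podocyte enrichment the same bins gave 11.6% (10.2 to 13.1), 5.16% (4.24 to 6.26) and 0. In the sixth podocyte bin, which starts at 7.08-fold, the share was 1.77% (1.27 to 2.48). Where both signals were in the weakest of 4 bins, 314 of 2149 regions (14.6%, 13.2 to 16.2) were vehicle-only. Where both were in the strongest, 0 of 2987 were, with an upper bound of 0.128%.

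**Figure D3:**
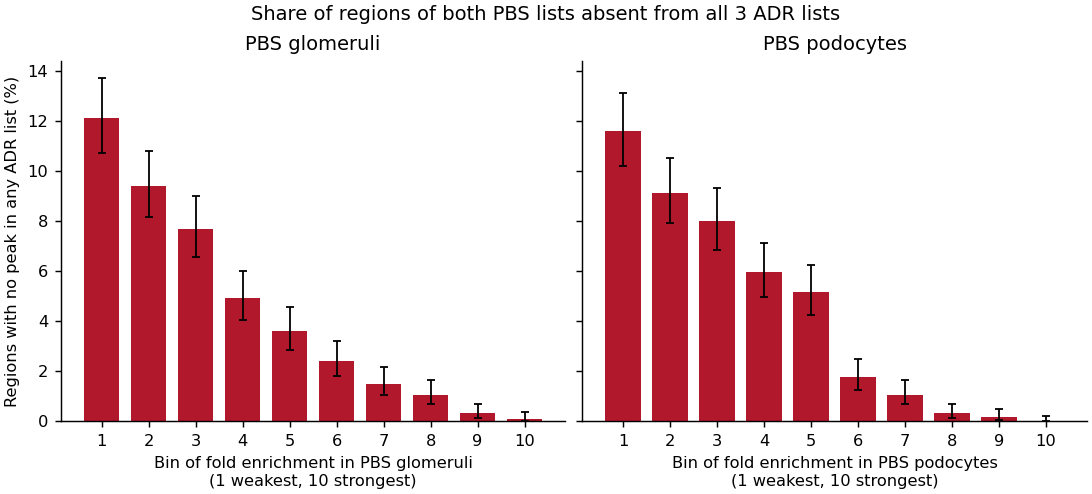
Percent of regions of both PBS lists that had no peak in any ADR list (bars, with 95% Wilson intervals), by bin of fold enrichment, 10 bins of equal size, in PBS glomeruli (left) and PBS podocytes (right). The share runs from 12.1% in the weakest to 0.107% in the strongest glomerular bin, and from 11.6% to 0 in podocytes.

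Signal in the 2 PBS lists was only loosely tied within the group. Across the 804 regions the Spearman correlation of enrichment between PBS glomeruli and PBS podocytes was 0.30. It was 0.42 over the 5969 regions with 1 ADR list and 0.45 over the 7174 with 2. Over the 4666 regions of all 5 lists it was 0.58, and over all 18613 regions of both lists 0.61. These are correlations across regions of the same lists, given as a description, over a narrower range of signal in the vehicle-only group than in the others. The glomerular percentile was the higher in 486 regions (60.4%, 57.0 to 63.8), close to the 59.4% (58.7 to 60.1) of the other regions. The intervals of the 2 shares overlap.

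The strongest vehicle-only site in podocytes was on chromosome 7 at 73789539 to 73789987 (mm9). It had 14.7-fold enrichment in PBS podocytes and 12.6-fold in PBS glomeruli, with −log10 q of 40.2 and 24.0. Its summits in the 2 lists lay 35 bp apart, and the nearest ADR peak was 29356 bp away, at day 9. This site ranked first when regions were ordered by the lower of their percentiles in the PBS lists.

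Next came a site on chromosome 4 at 25814932 to 25815451, with 17.3-fold enrichment in PBS glomeruli and 11.2-fold in PBS podocytes. It was 1 of a pair. A second vehicle-only region at 25814047 to 25814442, with 8.41-fold and 5.97-fold, lay 489 bp from it. No other region of any list lay within 50 kb of the centre of either, and the nearest ADR peak of any list was 225324 bp from the pair, at day 9. Both PBS preparations thus had 2 adjacent peaks here where none of the 3 ADR lists had any nearby.

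Another site on chromosome 1, at 169115029 to 169115496, had 11.6-fold enrichment in PBS glomeruli and 11.2-fold in PBS podocytes, and its summits were 14 bp apart. Its surroundings were different, with a peak at both day 9 and day 14 only 2110 bp away. On chromosome 7 at 114606509 to 114606997, enrichment was 11.2-fold and 10.4-fold, the summits were 8 bp apart, and all 3 ADR lists had a peak 7264 bp away. A region on chromosome 16, at 6707597 to 6708025, had 14.3-fold and 9.74-fold enrichment, with the nearest ADR peak 48800 bp off.

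The other 5 of the 10 strongest vehicle-only regions lay on chromosomes 2, 3, 11, 16 and 18. Their enrichment ranged between 10.6-fold and 15.8-fold in PBS glomeruli and between 9.03-fold and 9.74-fold in PBS podocytes. The site on chromosome 2 was at 121554588 to 121555016 (15.8-fold and 9.45-fold), and that on chromosome 3 at 86656696 to 86657096 (12.7-fold and 9.50-fold). The distance from these 5 to the nearest ADR peak was between 2519 and 31983 bp. All 10 strongest regions were narrow, between 338 and 520 bp.

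Some regions were strong in 1 preparation only. A site on chromosome 18 at 42350073 to 42350599 had the highest glomerular enrichment of the group, 27.2-fold (percentile 98.6), and 5.97-fold (percentile 46.0) in PBS podocytes. Its nearest ADR peak was 67489 bp away and no other region of any list lay within 50 kb of its centre. The widest gap between percentiles was on chromosome 9 at 65938406 to 65938726, with 15.0-fold in PBS glomeruli (85.6) and 2.75-fold in PBS podocytes (2.50). In the other direction, a site on chromosome 4 at 61986080 to 61986532 had 9.98-fold enrichment in PBS podocytes (74.5) and 4.37-fold in PBS glomeruli (8.41). Each of these 3 had summits at most 88 bp apart in the 2 PBS lists.

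The next-widest gaps towards glomeruli were on chromosome 10 at 60258747 to 60259209, with 15.9-fold in PBS glomeruli and 3.22-fold in PBS podocytes, and on chromosome 13 at 55515803 to 55517124, with 13.0-fold and 2.74-fold. The second of these was the widest region of the group at 1322 bp, and its summits were 311 bp apart. Towards podocytes came a site on chromosome 5 at 119820574 to 119821348, with 10.2-fold in PBS podocytes and 4.81-fold in PBS glomeruli. Then followed one on chromosome 4 at 3851563 to 3851960, with 7.38-fold and 3.93-fold. Their summits lay 7 and 6 bp apart.

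The group was also narrow. Its peaks had a median width of 264 bp in PBS glomeruli and 330 bp in PBS podocytes, against 403 and 515 bp in the other regions of both PBS lists. Among regions in the weakest of 4 bins of enrichment in both lists, the widths were 240.5 and 316 bp for vehicle-only regions and 302 and 375 bp for the rest. Of the 804 regions, 797 (99.1%, 98.2 to 99.6) had a single peak in each PBS list, 4 had 2 glomerular peaks and 3 had 2 podocyte peaks. The same share was not counted for the other regions, so it cannot be called particular to the group. A single peak was usual in the whole lists too. The 29082 PBS glomerular peaks fell in 28265 regions and the 23402 PBS podocyte peaks in 23035. Merged, the vehicle-only regions measured 369 bp at the median and 1322 bp at most.

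Within these narrow regions the summits of the 2 PBS lists lay close together. The overlap and small width of the peaks limit how far apart summits can lie. The summits lay at a median of 35 bp from each other (quartiles 15 and 67.3), and within 50 bp in 506 regions (62.9%, 59.5 to 66.2). In the other regions the median was 28 bp, with 70.4% (69.7 to 71.0) within 50 bp, and in the regions of all 5 lists 20 bp with 79.3% (78.1 to 80.5). Among regions in the weakest bin of both lists, the share within 50 bp was 53.2% (47.7 to 58.6) for the vehicle-only regions and 48.2% (45.9 to 50.5) for the rest. At this low signal the intervals overlap, and the lower share seen over the whole group was not repeated. The 2 PBS peaks overlapped by a median of 242 bp, against 373 bp in the other regions. An overlap under 50 bp was seen in 5 of the 804 regions and in 99 of the 17809 others.

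ADR peaks were usually not far from a vehicle-only region. The nearest other region with an ADR peak was at a median distance of 9410 bp (quartiles 2018 and 28570 bp), against 5431 bp (1329 and 18831 bp) for the other regions of both PBS lists. It lay within 10 kb in 409 of the 804 (50.9%, 47.4 to 54.3), against 62.5% (61.8 to 63.3). It lay within 1 kb in 135 (16.8%, 14.4 to 19.5), against 21.1% (20.5 to 21.7). The shares within 10 kb of a day 9 peak were 49.5% and 60.1%, of an ADR glomerular peak 28.9% and 39.0%, and of a day 14 peak 16.5% and 23.5%. Among regions in the weakest bin of both PBS lists, the share within 10 kb of any ADR peak was 53.8% (48.3 to 59.3) for vehicle-only regions and 55.3% (53.0 to 57.5) for the rest, with overlapping intervals.

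**Figure D4:**
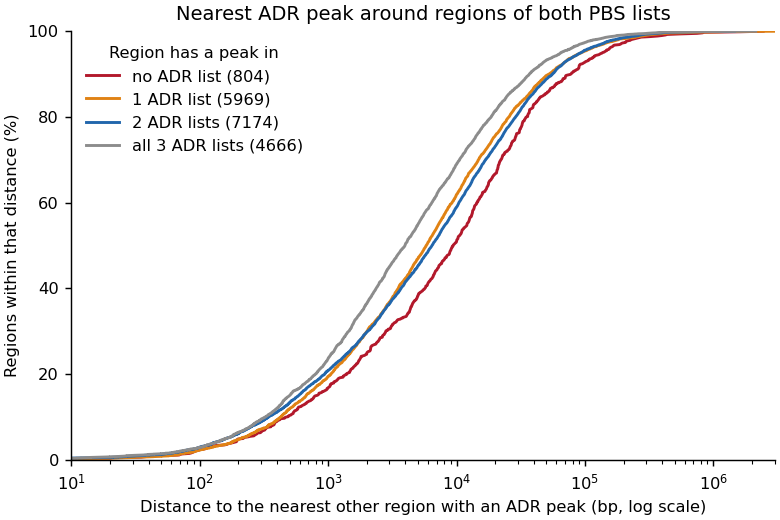
Cumulative percent of regions of both PBS lists (vertical) against the distance in bp, on a log scale, to the nearest other region with an ADR peak (horizontal), for regions with a peak in no ADR list, 1, 2 or all 3. The curve of the 804 vehicle-only regions lies to the right, with 50.9% within 10 kb against 68.9% of the regions in all 5 lists.

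Sites found only after injury were less common beside vehicle-only regions than beside the other regions of both PBS lists. A region found in ADR lists alone, with no PBS peak in either preparation, lay within 10 kb of 110 of the 804 (13.7%, 11.5 to 16.2), against 24.6% (24.0 to 25.2) of the other regions. Within 1 kb there were 20 (2.49%, 1.62 to 3.81), against 4.60% (4.30 to 4.92). In the weakest bin of both PBS lists the shares within 10 kb were 14.6% (11.2 to 19.0) and 19.2% (17.5 to 21.1), with intervals that overlap. Another region of all 5 lists lay within 10 kb of 99 vehicle-only regions (12.3%, 10.2 to 14.8), against 18.7% (18.1 to 19.3).

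Some vehicle-only regions lay in near-empty stretches and others at the edge of an ADR peak. In 80 regions (9.95%, 8.07 to 12.2) no other region of any list lay within 50 kb to either side, against 7.38% (7.00 to 7.77) of the other regions. By class this was 7.96% (7.30 to 8.67) with 1 ADR list, 8.39% (7.77 to 9.06) with 2 and 5.08% (4.49 to 5.75) with all 3. The intervals for 1 and for 2 ADR lists overlap that of the vehicle-only regions. The most remote vehicle-only region was on chromosome 5 at 60659942 to 60660273, with 5.19-fold enrichment in PBS glomeruli and 7.38-fold in PBS podocytes. Its summits were 6 bp apart and the nearest ADR peak was 2446515 bp away. The next were on chromosome 3 at 5575914 to 5576561, with 1628335 bp to an ADR peak, and on chromosome 4 at 4720214 to 4720586, with 850623 bp. The chromosome 4 site had 8.62-fold enrichment in PBS glomeruli and 4.19-fold in PBS podocytes, and its summits were 5 bp apart, while those of the chromosome 3 site were 340 bp apart. At the other end, a region on chromosome 2 at 74584548 to 74585077 (4.17-fold and 3.36-fold) had a day 9 peak 4 bp from its edge, and one on chromosome 1 at 133904279 to 133904646 an ADR glomerular peak 9 bp away. A region on chromosome 11 at 98011660 to 98012213 (6.49-fold and 5.24-fold) lay 20 bp from a region with both an ADR glomerular and a day 9 peak. For such regions the merging of peaks decides membership, and counting ADR peaks within 1 kb as present left 669 of the 804.

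Most vehicle-only regions had no other within 100 kb, and the share that had one was little above that of the other regions. Another vehicle-only region lay within 100 kb of 157 of them (19.5%, 16.9 to 22.4), against 16.1% (15.6 to 16.7) of the other regions. These intervals were only just apart. By class the share was 16.7% (15.8 to 17.7) with 1 ADR list, 14.9% (14.1 to 15.8) with 2 and 17.2% (16.1 to 18.3) with all 3. The intervals for 1 and for all 3 ADR lists overlap that of the vehicle-only regions. Closeness within the group is mutual, so the 157 are not independent and their interval is too narrow. Along the chromosome the next region of both PBS lists was again vehicle-only in 46 of 803 cases (5.73%, 4.32 to 7.56), against 4.26% (3.97 to 4.56) after any other region, with overlapping intervals. Windows of 100 kb held 1 vehicle-only region in 708 cases, 2 in 42 and 3 in 4, and none held more.

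Of the 4 windows with 3, the one on chromosome 14 at 33700001 to 33800000 had the fewest regions of both PBS lists, 5. Its vehicle-only sites were at 33720903 to 33721240, 33759243 to 33759630 and 33760766 to 33761110, with 8.37-fold, 15.1-fold and 9.11-fold enrichment in PBS glomeruli and 6.18-fold, 3.65-fold and 6.58-fold in PBS podocytes. Day 9 and ADR glomeruli both had a peak 2656 bp from the last of them, while the nearest day 14 peak was 464047 bp away. The window on chromosome 10 at 94700001 to 94800000 held 3 of 6, all weak, at most 5.50-fold in PBS glomeruli and 3.22-fold in PBS podocytes. Its sites at 94786064 to 94786483 and 94786514 to 94786916 lay only 30 bp apart. The window on chromosome 13 at 55800001 to 55900000 also held 3 of 6, with a strongest site of 12.2-fold and 5.32-fold at 55887424 to 55887809. Another of its sites, at 55841936 to 55842326 (11.1-fold and 3.40-fold), lay 1237 bp from a region with peaks in all 3 ADR lists. The last, on chromosome 11 at 98600001 to 98700000, held 3 of 17, so most of its regions of both PBS lists had an ADR peak.

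The share of vehicle-only regions ran between 3.30% and 6.06% over 20 chromosomes, with wide intervals. It was highest on the X chromosome, where 24 of 396 regions of both PBS lists were vehicle-only (6.06%, 4.11 to 8.86), and on chromosome 13, with 45 of 779 (5.78%, 4.35 to 7.64). It was lowest on chromosome 15, with 26 of 788 (3.30%, 2.26 to 4.79). Only the interval of chromosome 13 excluded the overall 4.32%, and it did so narrowly, with 20 chromosomes compared and no correction made. Among the lower 2 of 4 bins of PBS podocyte enrichment, where 742 of the 804 lay, the overall share was 7.97% (7.44 to 8.54). There the X chromosome had 23 of 175 (13.1%, 8.92 to 18.9) and chromosome 13 had 42 of 350 (12.0%, 9.0 to 15.8). Both intervals lay above that share, again with 20 chromosomes compared and no correction made. Chromosome 11 had 6.87% (5.31 to 8.83). The X chromosome also had the highest share of regions without an ADR glomerular peak among these 20, 51.0%, while its share without a day 9 peak was 7.32%. The Y chromosome held 1 region of both PBS lists, which was not vehicle-only.

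**Figure D5:**
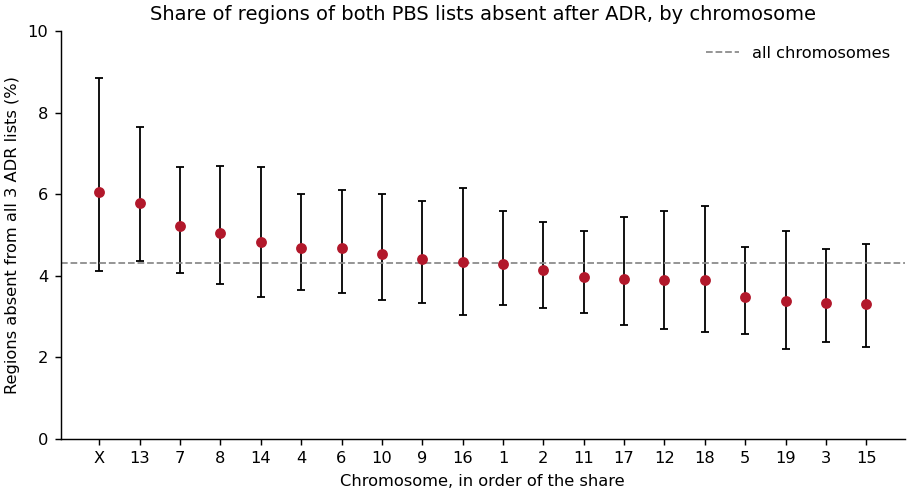
Percent of regions of both PBS lists that had no ADR peak in any list, by chromosome in order of the share (points, with 95% Wilson intervals), with the share over all chromosomes, 4.32%, as a dashed line. The points run between 6.06% on the X chromosome and 3.30% on chromosome 15, and the intervals overlap one another.

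At the edge of the rule the values were small on both sides. The vehicle-only region with the weakest PBS peak, on chromosome 6 at 32336285 to 32336590, had −log10 q of 1.32 in PBS glomeruli, the lowest of that list, with 2.58-fold enrichment. A day 9 peak lay 156 bp from its edge. Just outside, a region on chromosome 2 at 153566794 to 153567159 had an ADR glomerular peak of −log10 q 1.51 as its only ADR peak, with 4.76-fold enrichment in PBS glomeruli and 2.47-fold in PBS podocytes. Another, on chromosome 13 at 37919548 to 37919984, was kept out by a day 9 peak of −log10 q 1.52, the weakest of the day 9 list. The lowest −log10 q that entered each list was 1.31 for ADR glomeruli and 1.32 for PBS glomeruli, and in podocytes 1.51 for PBS, 1.52 for day 9 and 2.25 for day 14. ADR peaks that alone kept a region out were not mostly of this kind. The 422 peaks of regions whose only ADR list was glomerular had a median percentile of 32.1 within the ADR glomerular list, and the 5547 of regions whose only ADR list was day 9 one of 57.8 within the day 9 list.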

How the data were processed

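The submitters' processing notes name Bowtie 0.12.7, MACS2 and the mouse build mm9 for these WT1 ChIP-seq libraries. The authors deposited 1 narrowPeak list per group. The sources used here do not say how replicates were combined, nor the control or the cutoff. Fold enrichment, a ratio over background, and each peak's −log10 p-value and −log10 q-value are the authors' deposited values, used only within a list. Coordinates are 1-based in mm9.

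Peaks were merged where they overlapped or touched, and the strongest peak of a list stood for its region. Percentiles rank fold enrichment within a list. Bins of equal size were cut over the 18613 regions of both PBS lists. Distances run between region edges. The regions and all comparisons were chosen with earlier results of these data known. Named regions were the 10 highest by the lower of their PBS percentiles, the densest windows, the nearest to and farthest from an ADR peak, the widest percentile gaps and the values at the rule's edge; the chromosome 18 site with the highest glomerular enrichment, the partner of the chromosome 4 site and the chromosome 11 window were added after their values were seen. The planned motif and gene-start shares needed an mm9 genome or annotation, not used here, so regions are named by position. The merging, rule and distance code was tested on simulated lists. Tables were made with pandas 2.3.3 and numpy 2.4.6 in Python 3.11.15, intervals with scipy 1.17.1, plots with matplotlib 3.10.9.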

Additional observations from a re-analysis of the deposited data

How the results depend on the processing

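No paired analysis was possible because the lists are 1 to a group, and no replicate could be left out for the same reason. The motif and gene-start shares were not run. The number of vehicle-only regions stayed within 1.5 times of 804 in 4 of 7 alternatives: 804 without merging touching peaks, 804 without day 14, 774 with PBS summits within 200 bp and 669 with ADR peaks within 1 kb counted. A −log10 q of at least 10 in the PBS lists alone left 120, and in all 5 lists gave 445, which took in 120 of the original 804. With every list trimmed to its 6694 peaks of highest −log10 p there were 238, and 0 of the 804 were among them. Applied to all 5 lists, the cutoff and the trimming also drop ADR peaks, so they count other regions.

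The median percentile moved from 33.6 in PBS glomeruli and 25.0 in PBS podocytes to 30.9 and 21.5 when ranked by −log10 q, and to 62.9 and 49.7 among the 120 regions with −log10 q of at least 10. The share with summits within 50 bp was 62.9%, 86.4% within 100 bp, and 79.2% within 50 bp among the 120. An ADR peak lay within 50 kb of 85.4%, and one with −log10 q of at least 10 within 10 kb of 41.5%. Another vehicle-only region lay within 50 kb of 11.3%.

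The difference in ADR glomerular absence between regions without and with a day 9 peak, 25.3 points, was examined after the data were seen. It was 23.8 to 26.9 points under the stricter, trimmed, 1 kb and 200 bp settings. By bin of enrichment, 4 to a list, weakest first, it was 20.5, 31.2, 36.5 and 51.0 points in PBS podocytes and 13.0, 18.7, 23.7 and 46.6 in PBS glomeruli. By bin of −log10 q it was 4.43, 13.5 and 36.5 points in PBS podocytes, where the fourth could not be had, and 8.76, 16.4, 22.1 and 50.6 in PBS glomeruli. The direction held in all of these, and the size rested on how signal was measured; the cause was not tested. Read depth limits each list and was not known here.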
